A study of Mus musculus with 8 samples.

Results

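The Hox genes are homeodomain transcription factor genes that lie in 4 clusters of the mouse genome, Hoxa, Hoxb, Hoxc and Hoxd. They were taken here as every gene on the array whose symbol is Hoxa, Hoxb, Hoxc or Hoxd followed by a number, each represented by its brightest probe. This gave 39 genes among 22898 gene symbols, with 11 in the Hoxa cluster, 10 in Hoxb, 9 in Hoxc and 9 in Hoxd. The rule uses only the gene symbol and probe brightness, but it was set with earlier results of these data known.

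The study compared cortex and hippocampus of Tet1 knockout (KO) mice with those of wild-type (WT) mice. All groups were naive mice of a mixed 129 and C57BL6 background, and the labels used here give no age, sex or description of the Tet1 allele. The 8 samples form 4 groups of 2 (WT cortex, KO cortex, WT hippocampus and KO hippocampus). They were hybridised in pairs to 4 two-colour Agilent arrays on 1 slide, always with WT in Cy3 (green) and KO in Cy5 (red). Genotype and dye therefore cannot be told apart in any KO to WT ratio. The labels number the replicates 1 and 2 but do not say that they come from separate animals, so the p-values speak only to how far these samples differ, a spread that may be technical.

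Hox proteins give cells their position along the head-to-tail axis of the embryo. The genes are arranged in their cluster in the order in which they act along that axis, from anterior (low numbers) to posterior (high numbers), and in the nervous system their domains are the hindbrain and spinal cord, behind the cortex and hippocampus. Where they are silent, their CpG-rich promoters are typically covered by polycomb proteins, which mark histone H3 at lysine 27. TET1 oxidises 5-methylcytosine and is known from embryonic stem cells to bind CpG-rich promoters, among them many that polycomb also occupies.

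The array files give probe coordinates without naming a genome build. By them the Hox probes spanned 52105594 to 52208915 on chromosome 6 (Hoxa), 96057854 to 96228510 on chromosome 11 (Hoxb), 102759058 to 102867272 on chromosome 15 (Hoxc) and 74509248 to 74603059 on chromosome 2 (Hoxd). Promoter sequences from RefSeq (GRCm38.p6), another coordinate frame, matched 22 of the 39 genes with 24 entries. The 250 bases before each start held a median of 12.5 CpG dinucleotides (the letters CG, which read the same on both strands) in the Hox entries and 6 in all 32841 promoters of the table. A promoter was counted as CpG-rich when at least 50% of its bases were G or C and it held at least 0.6 of the CG count its base composition gives. By that rule 11 of the 24 Hox entries (45.8%) and 31% of all promoters were CpG-rich. At least 1 CG stood in all 24 Hox entries and in 92.1% of all promoters.

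These promoters include 4 shown here, with every CG in capitals: Hoxa7 and Hoxa9 because their probes passed the detection filter described next, Hoxa5 because it had the lowest ratio among the genes with an entry, and Hoxa13 because it held the most CG. They lie on the minus strand of chromosome 6 at chr6:52218574-52218823 (Hoxa7), chr6:52227371-52227620 (Hoxa9), chr6:52204588-52204837 (Hoxa5) and chr6:52260881-52261130 (Hoxa13). Each is written 5′ to 3′ on the gene's own strand and ends at the base before the start.
Hoxa7: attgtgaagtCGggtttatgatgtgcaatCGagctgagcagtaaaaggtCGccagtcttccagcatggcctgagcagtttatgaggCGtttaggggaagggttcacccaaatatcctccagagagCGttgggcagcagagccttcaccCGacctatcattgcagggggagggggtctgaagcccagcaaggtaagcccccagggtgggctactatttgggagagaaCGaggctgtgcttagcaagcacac
Hoxa9: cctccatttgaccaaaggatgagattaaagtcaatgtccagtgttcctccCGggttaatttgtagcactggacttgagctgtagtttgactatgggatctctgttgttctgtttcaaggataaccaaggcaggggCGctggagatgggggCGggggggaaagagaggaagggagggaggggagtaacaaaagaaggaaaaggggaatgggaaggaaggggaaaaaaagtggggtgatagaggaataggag
Hoxa5: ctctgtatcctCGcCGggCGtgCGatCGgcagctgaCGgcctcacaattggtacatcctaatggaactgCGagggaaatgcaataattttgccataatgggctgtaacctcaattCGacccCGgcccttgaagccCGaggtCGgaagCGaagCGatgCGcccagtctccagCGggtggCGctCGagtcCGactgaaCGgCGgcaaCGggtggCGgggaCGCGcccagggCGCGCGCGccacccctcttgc
Hoxa13: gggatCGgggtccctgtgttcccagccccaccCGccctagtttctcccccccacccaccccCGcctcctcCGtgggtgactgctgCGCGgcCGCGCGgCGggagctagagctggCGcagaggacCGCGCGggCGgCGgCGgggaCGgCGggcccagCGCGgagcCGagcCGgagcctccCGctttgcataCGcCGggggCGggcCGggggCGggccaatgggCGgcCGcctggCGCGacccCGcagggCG
The promoters of Hoxa7 and Hoxa9 held 7 and 3 CG (0.386 and 0.266 of the count their composition gives) and were not CpG-rich by the rule, while those of Hoxa5 and Hoxa13 held 28 and 35 CG (1.11 and 0.875) and were. Among the other Hox entries the CG count ran from 2 at one start of Hoxd11 to 31 at Hoxd13.

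On these arrays the Hox genes were at the level of the background. Feature Extraction, the scanner software, marks a spot as well above background when its signal clearly exceeds that background. In WT, 0 of 39 Hox genes carried the mark in each of the 4 samples. In KO, 3 of 39 carried it in cortex replicate 1, cortex replicate 2 and hippocampus replicate 2 (7.69%), and 1 of 39 in hippocampus replicate 1 (2.56%). Over all gene symbols the share was 56.7% to 58.0% in the Cy3 samples and 71.1% to 71.7% in the Cy5 samples. The Cy5 channel thus marked a larger share of all symbols, and the higher count of Hox genes in KO cannot be told apart from the dye. No Hox gene was marked in all 8 samples, and 35 were marked in none.

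Only 4 Hox genes were ever marked, all in KO. Hoxa7, which helps to pattern the trunk, was marked in 4 of 4 KO samples. Hoxc12, a posterior gene of the Hoxc cluster, was marked in 3 of 4. Hoxa9, known for its role in blood cell precursors, was marked in both KO cortex samples. Hoxa6 was marked in KO hippocampus replicate 2.

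Spots with no gene target (153 negative controls) give the floor of each channel. In the WT samples their median signal was 247, 257, 259.6 and 263 units, and the median Hox signal was 1.01 to 1.05 times that. In the KO samples the negative controls had medians of 79.9, 80.8, 79.3 and 79.3 units, and the median Hox signal was 1.03 to 1.06 times that. The median of all gene symbols was 1.77 to 1.91 times the negative controls in Cy3 and 5.96 to 6.90 times in Cy5. Between 4 and 8 Hox genes per WT sample and 9 and 12 per KO sample exceeded the 95th percentile of the negative controls. Over all symbols 66.3% to 70.7% exceeded it in WT and 80.2% to 82.3% in KO. The looser mark of Feature Extraction, positive and significant, was chosen as an alternative after seeing the data and counted 4 to 10 Hox genes in WT and 10 to 12 in KO. It was given to 69.6% to 71.1% of all symbols in WT and 80.7% to 81.9% in KO.

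**Figure D1:**
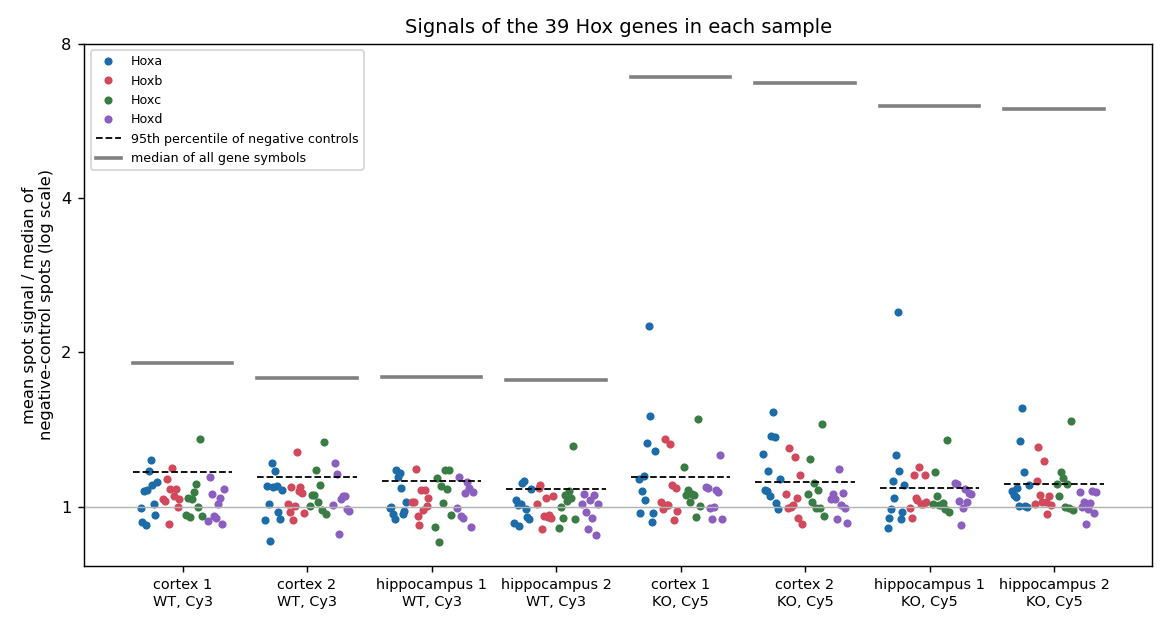
Mean spot signal of each of the 39 Hox genes (points, coloured by cluster) in each of the 8 samples, divided by that sample's median negative-control signal, on a log axis. Dashed lines mark the 95th percentile of the negative controls and grey bars the median of all gene symbols; most Hox genes sit near 1, with Hoxa7 the highest point in all 4 KO samples.

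The brightest Hox gene in WT was Hoxc12 in 3 of 4 samples (335, 344 and 346 units in cortex replicates 1 and 2 and hippocampus replicate 2), and Hoxb3 in hippocampus replicate 1 (308 units). In KO it was Hoxa7 in every sample (180, 124, 191 and 124 units in the same order as the negative controls above). Signals of the 2 channels have different scales, and these numbers are comparable only within a channel.

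Hoxa11 and Hoxb1 had 10 spots each on every array, which shows the error of a Hox signal within a sample. The 10 Hoxa11 spots averaged 238 units with an SD of 18.1 in WT cortex replicate 1, and 77.8 with an SD of 4.68 in the KO sample of the same array. The coefficient of variation over the 16 sets of spots ran from 2.34% (Hoxa11 in WT hippocampus replicate 2) to 20.3% (Hoxb1 in KO cortex replicate 2, where 1 of 10 spots was marked well above background). The means of both genes stayed below the 95th percentile of the negative controls in all 8 samples.

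Other axial patterning genes were counted by the same mark. Of 12 ParaHox and Hox-like genes on the array (the Cdx, Gsx and Evx genes and their relatives), 0 were well above background in any WT sample and 3 to 5 in the KO samples. Of 12 brainstem and spinal cord markers, 1 to 3 were so marked in WT and 6 to 7 in KO. Of those markers, Slc6a2, Slc6a4, Phox2a and En1 were marked in no sample. Tissue markers followed the labels: 5 of 7 cortex markers were higher in WT cortex and 7 of 8 hippocampus markers higher in WT hippocampus by limma's adjusted p, against 7.27% and 7.95% of all genes tested.

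Most of the genes that act with Hox proteins or on Hox chromatin were well above background. All 9 TALE cofactors (the Pbx, Meis and Pknox homeodomain proteins that bind DNA with Hox proteins) were well above background in all 8 samples. So were 9 of 11 genes of polycomb repressive complex 2, 10 of 16 of polycomb complex 1, 11 of 13 trithorax and H3K27 demethylase genes, and 17 of 22 forebrain transcription factor genes. Over the whole array 12506 of 22898 symbols were so marked, symbols with outlying spots not being counted. Of the 16 genes of polycomb complex 1, 5 were marked in no WT sample.

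**Figure D2:**
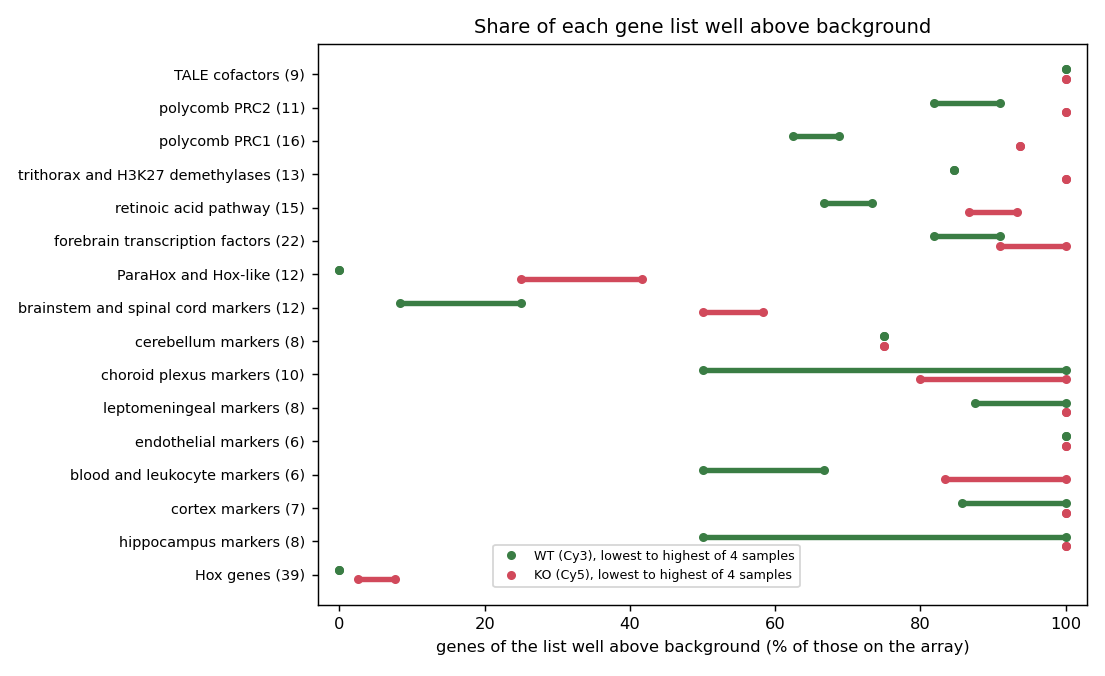
Share of each gene list marked well above background (x axis, in percent of the genes on the array, whose number is in brackets), from the lowest to the highest of the 4 WT samples (green) and the 4 KO samples (red). The Hox genes lie at 0% in WT and at 2.56% to 7.69% in KO.

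The KO to WT comparison asks whether loss of Tet1 went with a change of these genes. Genes entered the test if both arrays of a group, in 1 or more of the 4 groups, marked them well above background. These were 16359 genes, and limma's moderated test was run on the 4 log2 ratios with p-values adjusted by Benjamini-Hochberg over all of them. Only 3 Hox genes entered, Hoxa7, Hoxa9 and Hoxc12, each through its KO samples alone. In cortex 0 of the 3 passed an adjusted p of 0.05, against 0.0611% of all genes tested. In hippocampus 0 of the 3 passed, against 0.0183%. At an unadjusted p under 0.05 limma gave 1 of the 3 in each tissue, against 3471 and 3894 of the 16359 genes tested. Over the mean of both tissues 1 of the 3 passed, Hoxc12, against 11.1% of all genes. It was lower in KO, as were 3.84% of all genes tested, while 7.3% were higher.

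Hoxc12 had normalized log2 levels of 7.47 and 7.49 in WT cortex and 7.15 and 7.55 in WT hippocampus, against 6.73 and 6.72 in KO cortex and 6.76 and 6.82 in KO hippocampus. The level was lower in KO on all 4 arrays, as it was for 17.7% of all genes tested, and hippocampus replicate 1 had the smallest gap. The log2 ratios of KO over WT were -0.75 and -0.76 in cortex and -0.40 and -0.74 in hippocampus. The mean was -0.66 ± 0.07 (SE, n = 4 arrays; limma adjusted p = 0.0252), with -0.75 ± 0.10 in cortex (n = 2, adjusted p = 0.0900 in limma) and -0.57 ± 0.10 in hippocampus (n = 2, adjusted p = 0.0904 in limma).

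This call has 3 limits. Hoxc12 was well above background in 3 KO samples and in 0 WT samples, the reverse of what its ratio says, so its WT level is only a bound and gave no fold. With outlying local backgrounds kept in the background correction the ratio was -0.28 (limma adjusted p = 0.190) and with Feature Extraction's processed signals -1.30 (adjusted p = 0.0993). Without any 1 of the 4 arrays the ratio lay between -0.75 and -0.58, at limma adjusted p-values from 0.0670 to 0.135, while all genes called fell to 0 or 1.

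Hoxa7, the most often detected Hox gene, had log2 ratios of -0.01 and -0.27 in cortex and 0.28 and -0.03 in hippocampus. Its WT levels (7.34, 7.13, 7.26 and 7.06) and KO levels (7.33, 6.86, 7.54 and 7.03) overlapped, and the 2 replicates of a tissue lay further apart than the genotypes. Its mean ratio was -0.01 ± 0.08 (SE, n = 4 arrays; limma adjusted p = 0.952). Hoxa9 had ratios of 0.08 and 0.02 in cortex and -0.06 and 0.22 in hippocampus. Its mean was 0.06 ± 0.06 (SE, n = 4 arrays; limma adjusted p = 0.515), and its levels also overlapped between genotypes. A further Hoxa9 probe, marked well above background in no sample, gave 0.56, 0.55, 0.47 and 0.04 on the same arrays, a mean of 0.41, so that the probes of this gene differ. With all probes of a gene averaged Hoxa9 had 0.24. Hoxa9 entered the test only through KO samples, in which this average is higher. The average is therefore a description and no test is given for it.

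**Figure D3:**
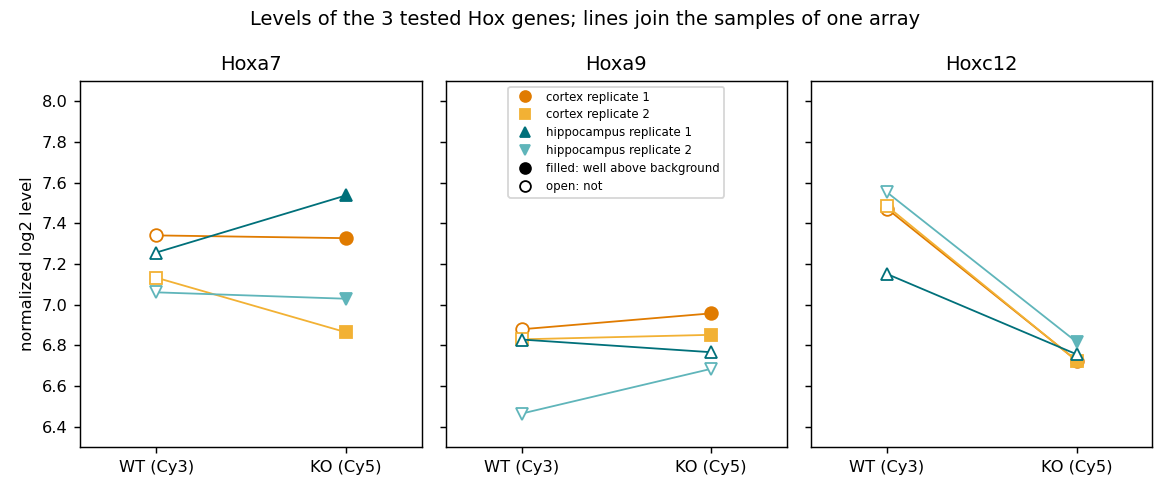
Normalized log2 levels of the 3 tested Hox genes in WT (Cy3) and KO (Cy5), with a line joining the 2 samples of each of the 4 arrays and filled symbols for samples well above background. Hoxc12 falls on all 4 arrays from 7.15 to 7.55 in WT to 6.72 to 6.82 in KO, although its filled symbols are in KO; Hoxa7 and Hoxa9 overlap between genotypes.

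For the remaining 36 genes both signals are at the background, so their ratios are given as a description of the arrays and not as changes of expression. Over the 39 genes the median log2 ratio was -0.15 and -0.08 in cortex replicates 1 and 2 and -0.22 and -0.09 in hippocampus replicates 1 and 2. The mean over the 4 arrays was below 0 for 30 of 39 genes (76.9%), and all 4 arrays were below 0 for 20 (51.3%). The corresponding shares were 48.7% and 21.4% of all symbols, and 64.6% and 32.3% of the 5766 symbols well above background in no sample. Those undetected symbols had a median of -0.07 against -0.13 for the Hox genes, and the SD of 1 gene over the 4 arrays had a median of 0.15 in both sets.

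The size of the Hox median depended on the processing. It was below 0 over both tissues under each way of processing that was tried, but ran from -0.05 with outlying local backgrounds kept to -1.88 with processed signals. Relative to the median of all symbols, the Hox median in cortex was -0.14 as reported and 0.01 with outlying backgrounds kept, so its direction in cortex was not stable. Median centring of the arrays in place of loess gave -0.98, and moved the median of all symbols from 0.01 to 0.26.

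**Figure D4:**
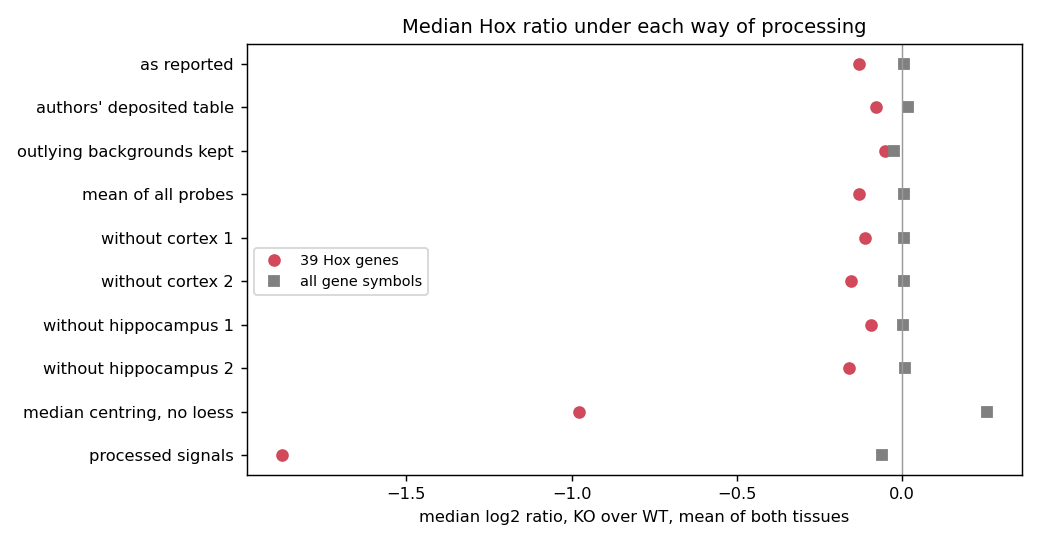
Median log2 ratio of KO over WT, mean of both tissues, for the 39 Hox genes (red points) and for all gene symbols (grey squares), under 10 ways of processing. The Hox median lies between -0.16 and -0.05 in 8 of them, at -0.98 with median centring and at -1.88 with Feature Extraction's processed signals.

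The 4 clusters overlapped in their medians from array to array. The Hoxa median over both tissues was -0.10, with 8 of 11 genes below 0. The Hoxb median was -0.16, with 8 of 10 below 0. The Hoxc median was -0.23, with 7 of 9 below 0. The Hoxd median was -0.15, with 7 of 9 below 0. On single arrays the cluster medians ran from -0.15 to -0.06 (Hoxa), -0.17 to -0.07 (Hoxb), -0.35 to -0.03 (Hoxc) and -0.25 to -0.07 (Hoxd). By position along the axis, the anterior paralogue groups 1 to 4 had a median of -0.09 (7 of 12 below 0), the central groups 5 to 8 of -0.12 (10 of 11) and the posterior groups 9 to 13 of -0.15 (13 of 16).

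In the Hoxa cluster, Hoxa5, which patterns the neck and thorax, had the lowest mean of -0.45 ± 0.26 (SD, n = 4 arrays), from -0.22 and -0.69 in cortex and -0.67 and -0.23 in hippocampus. Hoxa4, its anterior neighbour, had the highest mean of all Hox genes, 0.33 ± 0.10 (SD, n = 4 arrays), from 0.35 and 0.46 in cortex and 0.23 and 0.29 in hippocampus. Both genes were well above background in 0 samples. Hoxa2, Hoxa3, Hoxa6, Hoxa10, Hoxa11 and Hoxa13 had means from -0.21 (Hoxa6) to -0.06 (Hoxa2).

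In the Hoxb cluster the means lay from -0.27 to 0.05. Hoxb2, a gene of hindbrain segments, and Hoxb8, known for its part in trunk patterning, had the lowest means, -0.27 ± 0.15 and -0.26 ± 0.13 (SD, n = 4 arrays). Both were below 0 on all 4 arrays. Hoxb1, Hoxb3 and Hoxb13 were also below 0 on all 4 arrays, with means of -0.12, -0.21 and -0.20. Hoxb5 and Hoxb6 were below 0 on 3 arrays, Hoxb7 and Hoxb9 on 2, and Hoxb4 on 1.

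In the Hoxc cluster Hoxc6, a gene of forelimb-level motor neurons, was above 0 on all 4 arrays (0.22 and 0.02 in cortex, 0.48 and 0.35 in hippocampus; mean 0.27 ± 0.20, SD, n = 4 arrays). Hoxc8, Hoxc9, Hoxc10 and Hoxc11, genes of trunk and lumbar patterning, were below 0 on all 4 arrays together with Hoxc12. Their means were -0.28 (Hoxc8), -0.30 (Hoxc9), -0.36 (Hoxc10) and -0.23 (Hoxc11), each with an SD of 0.15 to 0.20. Hoxc4 had a mean of 0.13, Hoxc5 of -0.10 and Hoxc13 of -0.12, with both signs among the arrays of each.

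In the Hoxd cluster Hoxd3 had -0.38 and -0.65 in cortex and -0.31 and -0.44 in hippocampus (mean -0.44 ± 0.15, SD, n = 4 arrays), and its neighbour Hoxd4 a mean of -0.38 ± 0.26. Both were below 0 on all 4 arrays, as were Hoxd8 and Hoxd11 (means -0.10 and -0.15). Hoxd9, Hoxd10 and Hoxd13, genes of limb and caudal patterning, had means of -0.13, -0.15 and -0.15, and Hoxd1 and Hoxd12 means of 0.10 and 0.09. Hoxd12 reached 0.43 on the array of cortex replicate 1 and -0.16 on that of cortex replicate 2.

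**Figure D5:**
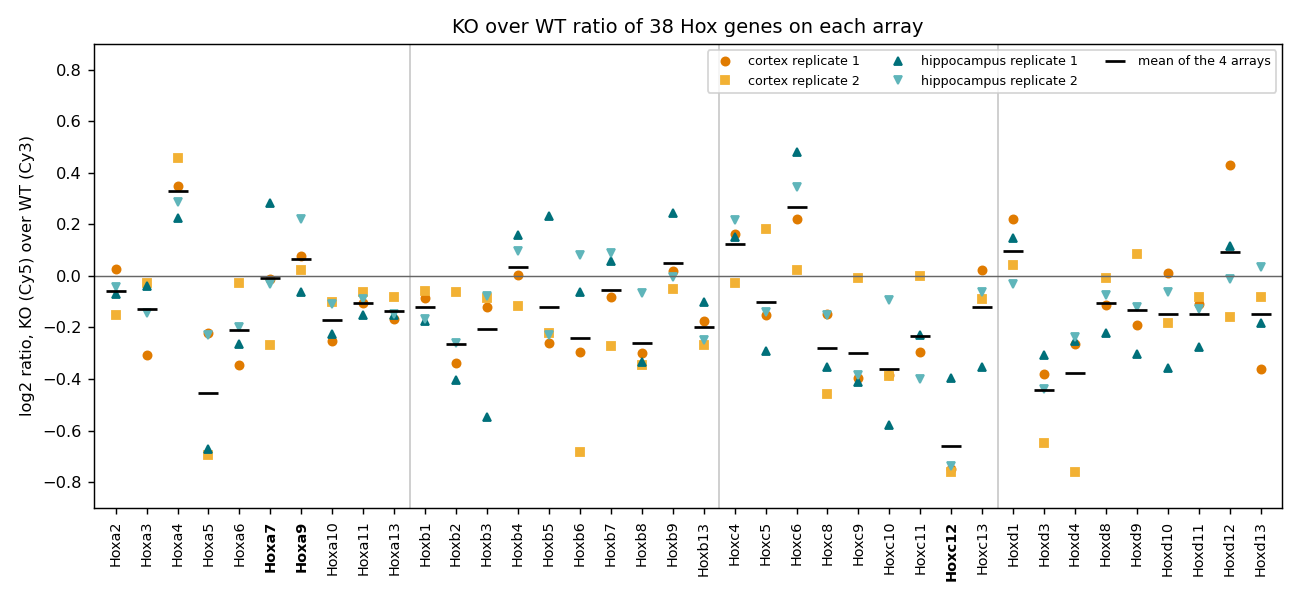
Log2 ratio of KO (Cy5) over WT (Cy3) of 38 Hox genes on each of the 4 arrays (coloured symbols) with their mean (black bars), ordered by cluster and position; grey lines part the clusters and bold names mark the 3 tested genes. Hoxc12 has the lowest mean (-0.66) and Hoxa4 the highest (0.33), and 20 of the genes are below 0 on all 4 arrays.

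No tested Hox gene passed the test of a different KO effect in the tissues. The difference of cortex minus hippocampus was -0.27 ± 0.16 for Hoxa7, -0.03 ± 0.13 for Hoxa9 and -0.19 ± 0.14 for Hoxc12 (SE, n = 4 arrays; limma adjusted p above 0.99 for each). At this number of arrays 0% of all genes tested passed in limma, and 738 of the 16359 had an unadjusted p under 0.05, none of them a Hox gene.

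Cortex and hippocampus were compared within each genotype by a limma fit to the single channels. In WT 0 of the 3 tested Hox genes passed, against 15.2% of all genes. In KO 0 of the 3 passed, against 15% of all genes. At an unadjusted p under 0.05 limma gave 0 of the 3 in either genotype, against 4773 and 4677 of the 16359 genes tested. The log2 difference of cortex over hippocampus was 0.08 ± 0.20 in WT and -0.19 ± 0.20 in KO for Hoxa7 (SE; limma adjusted p = 0.837 and 0.610), and 0.21 ± 0.12 and 0.18 ± 0.12 for Hoxa9 (limma adjusted p = 0.305 and 0.390). For Hoxc12 it was 0.13 ± 0.12 and -0.06 ± 0.12 (limma adjusted p = 0.558 and 0.809).

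The array holds 7 further transcripts inside the spans of the Hox probes. Hoxa11as, the antisense transcript of Hoxa11, was well above background in all 4 KO samples and 0 WT samples. Its ratios were 0.45 and 0.56 in cortex and 0.22 and 0.15 in hippocampus, a mean of 0.35. It entered the test only through the KO samples, in which it is higher, so these ratios are a description and no test is given. Gm4200, in the Hoxc cluster, was also marked in KO samples only and had -0.29, -0.50, -0.32 and -0.16 (mean -0.32 ± 0.06, SE, n = 4 arrays; limma adjusted p = 0.0456). Neither gave a bound on a fold, the WT levels being at background, and the ratio of Hoxa11as was -0.31 with median centring. Over 11 alternatives the ratio of Gm4200 ran from -0.89 to -0.11, and Gm4200 was called under 4 of them. The other 5 (2700086A05Rik, 9530018H14Rik, Gm11536, Gm11538 and 1700109F18Rik) were marked in no sample.

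The cofactors and chromatin regulators were also read over the mean of both tissues. There 11.1% of all genes passed, 7.3% higher and 3.84% lower in KO. Of 9 TALE cofactors 1 was lower in KO and 0 higher: Pbx3, at -0.30 ± 0.05 (SE, n = 4 arrays; limma adjusted p = 0.0348). Of 11 genes of polycomb complex 2 the test called 2 higher and 0 lower. These were Ezh1, a histone H3 lysine 27 methyltransferase (0.23 ± 0.05, SE, n = 4 arrays; limma adjusted p = 0.04997), and Aebp2, a subunit that helps to stabilise the complex (0.22 ± 0.04; adjusted p = 0.0478). Of 15 tested genes of polycomb complex 1, Phc3 was lower (-0.31 ± 0.05, SE, n = 4 arrays; limma adjusted p = 0.0348) and 0 were higher, and 0 of 13 trithorax and demethylase genes passed. The ratios of Pbx3 and Phc3 turned positive with median centring (0.25 and 0.30), a setting that shifts the median of all symbols by the amount given above. Over 12 alternatives the ratio of Ezh1 ran from 0.0011 to 1.09 and that of Aebp2 from 0.12 to 0.81, and each was called under 5 of them.

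Retinoic acid, a signal that switches on Hox genes in the hindbrain, is made by enzymes such as Aldh1a2. Of 14 tested genes of this pathway 2 were called lower in KO and 0 higher. Aldh1a2, called lower, had 0.43 and -0.13 in cortex and -1.47 and -1.91 in hippocampus (mean -0.77 ± 0.12, SE, n = 4 arrays; limma adjusted p = 0.0378). It was low on the hippocampus arrays and mixed in cortex. Of 8 leptomeningeal markers 7 had a mean below 0, as had 43.5% of all genes tested. Among the 7, Lum, Igf2 and Ogn lay near 0 (-0.02, -0.03 and -0.08). The median of the markers was -0.91 in hippocampus and 0.25 in cortex, where all but Gjb2 were above 0. The test called 3 lower, against 3.84% of all genes, Slc6a13 and Gjb2 (-0.81 and -0.77) with the largest ratios. Their summed log2 level was 13.6 to 15.1 in the WT samples and 13.9 to 14.7 in the KO samples. The part of these markers in the result was not tested. Choroid plexus markers, with 10 of 10 on the array, had a median of 1.30 in cortex and -1.40 in hippocampus. These medians rest largely on replicate 2: in both tissues every marker lay further from 0 on that array than on replicate 1. Ttr, for example, had 1.06 and 4.63 in cortex and 0.82 and -3.99 in hippocampus. In each comparison 0 of the choroid plexus markers were called. The Hox median was -0.12 in cortex and -0.17 in hippocampus, and the part of the choroid plexus markers in it was not tested.

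Of the other lists, 1 of 22 forebrain genes was called, Otx1 (mean ratio 0.31). Of 7 tested brainstem and spinal cord markers 3 were called higher in KO and 0 lower, against 7.3% and 3.84% of all genes. Among them were Fev, the transcription factor of serotonin neurons (mean ratio 0.71), and Lbx1 (0.28). Otx1, Fev and Lbx1 were marked in 0 WT samples and entered the test only through KO samples, in which they are higher, so their ratios are a description and no test is given for them. All 3 turned negative with median centring, and Otx1 also with processed signals. Of 3 tested ParaHox and Hox-like genes 0 passed. Of 6 endothelial markers Cldn5 (-0.59) and Vwf (-0.43) were called lower, both positive with median centring, and 1 each of the cortex and hippocampus markers was called higher, Rorb (0.43) and Dsp (0.71). Cerebellum markers (6 tested) and blood and leukocyte markers (6 tested) gave 0 calls.

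The Hox partners were also compared between the tissues. In WT, 4 of 9 TALE cofactors were higher in cortex and 0 higher in hippocampus, against 7.27% and 7.95% of all genes. Meis2 was higher by 1.51 ± 0.16 and Meis1 by 1.24 ± 0.15 on the log2 scale (SE; limma adjusted p = 0.00144 and 0.00228). The same counts, 4 and 0, were found in KO, against 7.61% and 7.43%. Of 22 forebrain transcription factor genes 9 were higher in WT cortex and 2 in WT hippocampus.

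Tet1 itself checks the genotype labels. Its brightest probe, well above background in all 8 samples, had log2 ratios of -0.18 and -0.20 in cortex and -0.23 and -0.10 in hippocampus (mean -0.18 ± 0.05, SE, n = 4 arrays; limma adjusted p = 0.0813). The ratio was below 0 on all 4 arrays but did not pass the threshold, and it was positive with median centring (0.09). Whether the probe lies in the deleted part of the gene is not given in the sources used here, so it does not settle the labels.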

How the data were processed

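Total RNA (0.5 µg per sample) was labelled with Cy3 (WT) or Cy5 (KO), per the labels. The scanner files hold mean spot and local background intensity that were written, per the file headers, with Feature Extraction 10.1.1.1. The deposited table of the authors holds log2 values per channel, with column medians of 8.26 to 8.31. Per channel they correlated with log2 processed signals at 0.956 to 0.983. The KO over WT log2 ratios of the 2 sources correlated at 0.462 to 0.486 per array. How the deposited table was centred is not given in the sources used here. What limma, named in the submitters' processing notes, was used for is not stated.

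Background was corrected with normexp (offset 50), with the array's median for spots marked as having an outlying local background. Loess (span 0.3) excluded control spots, spots of a probe were averaged, and Aquantile normalization followed. A level or ratio is thus log2(signal + offset) based and understates changes of dim genes. The 4 log2 ratios were fitted in limma 3.58.1 (R 4.3.3) with 1 mean per tissue, and the tissues from single channels with an intraspot correlation of 0.192. Threshold: adjusted p of 0.05 over 16359 genes; 44 symbols were left out for outlying spots.

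The members, lists and background choice were made with earlier results of these data known. Genes with full values were members called in any comparison or tested, and the 3 highest and 3 lowest with 1 sign on all arrays (only 2 were positive). Of other lists the 2 largest called ratios are given. The array pairs WT with KO by co-hybridisation, and the fit of ratios uses that pairing. Scripts were tested on simulated data. The number of arrays limits the precision. A few genes are not reported here by name.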

Additional observations from a re-analysis of the deposited data

Results flagged for a closer look

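Hoxb7 had log2 ratios of KO over WT of -0.08 and -0.27 on the cortex arrays and of 0.06 and 0.09 on the hippocampus arrays. Both cortex arrays thus went one way and both hippocampus arrays the other, with a difference of the means of -0.25. The difference was not tested, since Hoxb7 was well above background in no sample. Such opposite signs were found for 1 of 39 Hox genes (2.56%) and for 5.94% of all symbols.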

How the results depend on the processing

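The counts below are calls by limma in the cortex, hippocampus and mean-of-both comparisons of KO over WT (as reported 10, 3 and 1823 of all genes, and 0, 0 and 1 Hox genes). With Feature Extraction's processed signals they were 130, 356 and 1137 with 0 Hox genes in the mean, and the Hox median was -2.02 in cortex, -1.75 in hippocampus, -1.88 over both and -0.27 for the difference of the tissues. With outlying local backgrounds kept they were 0 (1659 at an unadjusted p under 0.05), 7 and 3 with 0 Hox genes, and the Hox median was -0.013 in cortex and -0.053 over both. With median centring they were 13566, 13210 and 14244, with 144 for the difference and 3, 2 and 3 Hox genes, all lower in KO (Hoxa9 at -0.71, turned from 0.06), and Hox medians of -1.03, -0.90, -0.98 and -0.15; 83.0% of calls over both tissues were then higher in KO, against 65.6% as reported. From the authors' deposited table they were 22 and 16 in the tissues, with a Hox median of -0.065 in hippocampus, and Hoxc12 stayed called (-0.42). A filter on all 8 samples left 18, 14 and 995 genes (54.9% higher) and no Hox gene to test. Without a filter they were 29, 10 and 3263 (53.2% higher) of 22854 genes. Over both tissues 3 of 39 Hox genes were then called (Hoxa4, Hoxc12 and Hoxd3). Hoxa4 and Hoxd3 were well above background in no sample. With the mean of all probes they were 35 and 8 in the tissues. That setting called 2 Hox genes over both (Hoxa9 and Hoxc12) and 1 (Hoxa9) in KO cortex over KO hippocampus. Hoxa9 entered the test only through KO cortex, the group in which it was higher, so its calls are a description and no support for a change. With an intensity trend and robust estimation the counts were 35 and 64 in the tissues. The cause of these changes was not tested.

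In the fit of single channels with no replicate block the counts were 284 and 431 in the tissues, with Hoxc12 as 1 Hox gene called in cortex. For the tissues, replicate number as a block gave 1451 genes in WT against 2490 and 3519 in KO against 2461, with 0 Hox genes in each; the deviations of same-numbered cortex and hippocampus samples correlated at -0.09 in WT and 0.24 in KO, and 2 pairs per genotype do not settle whether the numbers pair them. No other Hox call changed with the block.

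Leaving out 1 array at a time gave 0 Hox genes in each of the 6 comparisons. All genes called were 0 in cortex, 0 to 1 in hippocampus and over both tissues, 0 for the difference, 705 to 1974 between the tissues in WT and 623 to 1931 in KO (with the correlation of all 4 arrays, the lone sample being assumed to vary like the others). The Hox median ranged from -0.15 to -0.08 in cortex, -0.22 to -0.09 in hippocampus, -0.16 to -0.09 over both and -0.02 to 0.05 for the difference.

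With the positive and significant mark, chosen after seeing the data, 8 and 9 Hox genes were detected in WT cortex and 10 and 4 in WT hippocampus. In KO it detected 12 and 10 in cortex and 12 and 11 in hippocampus. Over all symbols that mark was given to 69.6% to 71.1% in WT and 80.7% to 81.9% in KO. Taking any probe of a gene changed none of the 8 detection counts. The 4 arrays and signals near background limit what can be said of 36 of the 39 Hox genes.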
